A study of Rattus norvegicus with 8 samples.

Results

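Solute carriers outside the glucose (Slc2a), monocarboxylate (Slc16a) and mitochondrial (Slc25a) families, and without Slc11a2, were followed in rat soleus, the slow postural muscle of the hindlimb. The members were all probe sets whose single gene symbol in the platform annotation began with Slc and a digit, apart from those families and that gene. This gave 146 probe sets of 8740 on the array, for 96 genes of 4736 genes named singly. The rule rests on gene symbols and uses no signal, but it was chosen with earlier results of these data known.

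RNA was taken from female rats in 3 groups; their strain and age are not stated in the labels. The control rats had 12 h of ordinary standing and walking in the cage and were measured on 3 arrays. The unloaded rats had their hindlimbs kept off the ground for 12 h and were measured on 3 arrays, and the walked rats had the same 12 h of unloading followed at once by treadmill walking, on 2 arrays. Walking added up to 2 h, in bouts of 30 min that alternated with 30 min in the cage over 4 h, so the walked muscle was also taken later than the unloaded muscle. No group had the same extra 4 h without walking, and walking cannot be told apart from that time. Each array carried the pooled RNA of 8 to 10 rats, so an SD or p-value here describes the spread between pools and not between animals.

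Solute carriers are membrane proteins that move amino acids, ions, nucleosides, vitamins, organic acids and many other small molecules across the plasma membrane or between compartments of a cell. Some work as exchangers, some couple uptake to the sodium gradient, and some only function as a pair of a light transporting chain and a heavy chain that carries it to the surface. In skeletal muscle they serve the entry of amino acids for protein synthesis, of creatine and fatty acids for energy supply, and the control of calcium, chloride, bicarbonate and magnesium during and after contraction.

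The values are signal intensities, 1 per probe set, scaled to the same trimmed mean on every array. Arrays were compared on the log2 scale over the 5244 probe sets above the 40th percentile of mean signal, the ones tested. Within a group they correlated at r = 0.9495 to 0.9626, and between groups at 0.9128 to 0.9451. Of the arrays, control pool 3 was the least like the other groups, with a mean r of 0.9184 against 0.9285 to 0.9372 for the other 7. It also held the lowest signal in 17 of the 79 solute carriers tested (21.5%), against 14.7% of all probe sets tested. The same pool held the highest signal in 8 of the 79 (10.1%), against 22.1% of all, so it was not dim throughout. Of 10 slow muscle markers, 7 were on the array, all among the probe sets tested. Their summed signal was 20806 to 23476 in control, 23835 to 33242 in unloaded and 30699 to 34161 in walked pools. In whole muscle, fewer cells of a type and less RNA per cell cannot be told apart.

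The 2 solute carrier genes that rose after walking, Slc3a2 and Slc22a3, are shown by the sequence upstream of their annotated starts, because the best known activity- and stress-driven transcription factors bind short elements in such regions. The windows come from RefSeq (GRCr8), hold the 250 bases before a start, and are written 5′ to 3′ on the strand of the gene. Capitals mark the core of the cAMP response element, TGACG, which reads CGTCA on the opposite strand. Slc3a2 has 2 listed starts. The first window lies at chr1:215048065-215048314 on the minus strand, with the capitals beginning 18 bases before the start. The second, at chr1:215039671-215039920 on the minus strand, holds no match. The Slc22a3 window lies at chr1:50782968-50783217 on the plus strand, with the capitals beginning 69 bases before the start.
Slc3a2 first start: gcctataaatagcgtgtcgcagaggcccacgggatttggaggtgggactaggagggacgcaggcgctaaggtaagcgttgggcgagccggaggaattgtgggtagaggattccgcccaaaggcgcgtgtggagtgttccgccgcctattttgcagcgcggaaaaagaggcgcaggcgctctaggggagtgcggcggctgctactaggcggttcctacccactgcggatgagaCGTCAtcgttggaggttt
Slc3a2 second start: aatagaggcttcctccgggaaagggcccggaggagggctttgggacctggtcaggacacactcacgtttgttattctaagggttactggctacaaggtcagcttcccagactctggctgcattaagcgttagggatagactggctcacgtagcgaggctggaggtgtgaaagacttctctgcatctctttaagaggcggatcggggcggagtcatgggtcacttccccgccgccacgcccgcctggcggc
Slc22a3: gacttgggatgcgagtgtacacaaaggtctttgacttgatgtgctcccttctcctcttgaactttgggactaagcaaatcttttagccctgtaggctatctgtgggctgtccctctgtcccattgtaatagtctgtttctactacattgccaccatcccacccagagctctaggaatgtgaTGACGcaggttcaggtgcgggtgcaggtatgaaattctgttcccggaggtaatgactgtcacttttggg

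The core was frequent everywhere. Searched on both strands, it was in 18.2% of all 33469 windows of this length and in 16 of 92 windows (17.4%) of the 82 solute carrier genes with an entry. None of the windows of Slc41a3, Slc4a3, Slc12a7 and Slc22a13 held it. The full palindrome TGACGTCA, which overlaps the core, was in 1.59% of all windows. The amino acid response element TGATGNAA was in 3.40%, the AP-1 element TGAGTCA in 4.05% and the heat shock unit GAANNTTC in 7.23%. None of these last 4 was in the windows of Slc3a2, Slc22a3, Slc41a3, Slc4a3, Slc12a7 or Slc22a13. The E-box CACGTG was in 5.59% of all windows, among them those of Slc41a3 and Slc12a7. A match describes these letters only, and no binding was measured.

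Of the 146 solute carrier probe sets, 79 (54.1%) had a mean signal above the 40th percentile of all probe sets, a signal of 25.8, against 60% of all by construction. They stand for 61 genes. The other 35 genes had no probe set above it. The MAS5 detection calls were not used here, so a signal above the threshold does not itself show that a transcript was present, nor a lower one that it was absent. Just above the threshold were the peptide transporter Slc15a2 (26.7), the serotonin transporter Slc6a4 (26.5) and the vesicular GABA transporter Slc32a1 (26.4). Just below it were Slc6a20a (24.3), the taurine transporter Slc6a6 (24.2) and 1 of the 5 probe sets of the exchanger Slc8a1 (24.0).

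As a group the solute carriers were dim. Their median mean signal was 28.4, against 39.3 over all probe sets, and 15 of 146 (10.3%) reached 200, against 17.9% of all. Of the 79 above the threshold, 51 had a mean under 100 and 51 stood at or above the threshold on every array. Of the 79, 9 passed only through the group in which they were brightest, with a mean under the threshold over the other arrays, and none of these 9 was called in any comparison. The 67 below it ranged from 1.51 to 24.3, 26 of them under 10. Dim sets were noisier: the median within-group SD on the log2 scale was 0.382 for the 51 under 100 and 0.222 for the 28 of 100 or more.

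The 10 brightest probe sets stood for 9 genes. They were the 2 of the amino acid transporter heavy chain Slc3a2 (mean signals 685 and 559.6) and those of the anion exchanger Slc4a3 (519), the sodium-calcium exchanger Slc8a1 (486) and the nucleoside transporter Slc29a1 (367). They continued with the sodium-bicarbonate cotransporter Slc4a7 (347), the urea transporter Slc14a2 (289), the heavy chain Slc3a1 (285), the fatty acid transporter Slc27a1 (266) and the magnesium carrier Slc41a3 (253). Signals of different probe sets depend on their probes and give no order of transcript amounts. Within 1 gene they also diverged: 34 genes had more than 1 probe set, the brightest was a median of 3.35 times the dimmest, and 17 of the 34 genes had sets on both sides of the threshold. The extreme was Slc14a2, with means of 289 and 3.52.

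**Figure D1:**
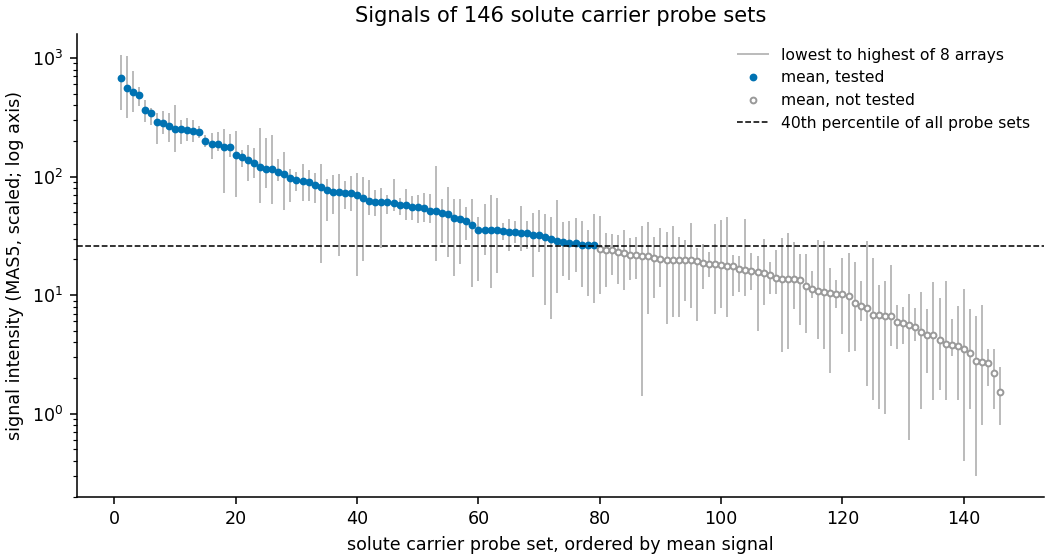
Signal intensity (vertical log axis) of the 146 solute carrier probe sets, ordered by mean signal along the horizontal axis, with a point for the mean of 8 arrays, a grey line from the lowest to the highest array and a dashed line at the 40th percentile of all probe sets. The 79 tested sets (filled points) lie above a signal of 25.8, and the ranges over arrays are widest among the 67 dim sets (open points).

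By class, every nucleoside carrier gene (4 of 4) had a probe set above the threshold, as did both genes each for phosphate, urea and the glucose-6-phosphate group. The 3 sodium-proton exchanger genes on the array (Slc9a2, Slc9a3 and Slc9a4) had none, with Slc9a3 the highest at 19.8. Of the transporters of neurotransmitters, taurine and creatine, 9 of 14 genes had a set above it, of the organic cation and anion carriers 5 of 8, and of the cation-chloride cotransporters 3 of 6.

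Few solute carriers were called. In what follows "called", "rose" and "fell" mean that limma's p-value adjusted by Benjamini-Hochberg over all 5244 probe sets tested was under 0.05. A log2 fold change is given ± its standard error. Of the 79 solute carrier probe sets, 72 were called in none of the 3 comparisons and 7 (8.86%), of 6 genes, in at least 1, against 14.0% of all probe sets tested. The comparisons share arrays, since each group of arrays serves in 2 of them, so their values stand side by side and are not independent.

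After unloading, 0 solute carrier probe sets rose and 2 fell, which is 2.53% of 79, against 7.30% of all probe sets called (3.99% rose and 3.32% fell). At an unadjusted p under 0.05 there were 4 higher and 8 lower, or 15.2% against 21.5% of all. The median log2 fold change was -0.03, against -0.08 over all probe sets tested. With so few calls, nothing particular to solute carriers is read from that share.

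From unloaded to walked, 3 rose and 0 fell (3.80%), against 4.20% of all (2.73% rose and 1.47% fell). At an unadjusted p under 0.05, 5 were higher and 3 lower, 10.1% against 17.4% of all, and the median was 0.01 against -0.05. Walked against control, 2 rose and 4 fell (7.59%), against 9.08% of all (4.46% rose and 4.61% fell). There 13.9% passed the unadjusted threshold against 24.7% of all, and the median was -0.01 against -0.11. In both comparisons the share called was near the background.

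The individual fold changes were mostly small. Within 0.5 of 0 on the log2 scale lay 63 of 79 for unloaded against control, 69 for walked against unloaded and 54 for walked against control. The 95% confidence interval of the fold change lay wholly within 1 of 0 for 50, 42 and 38 of them, so for the remaining 29, 37 and 41 a change of 2 times or more could not be set aside at this precision.

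**Figure D2:**
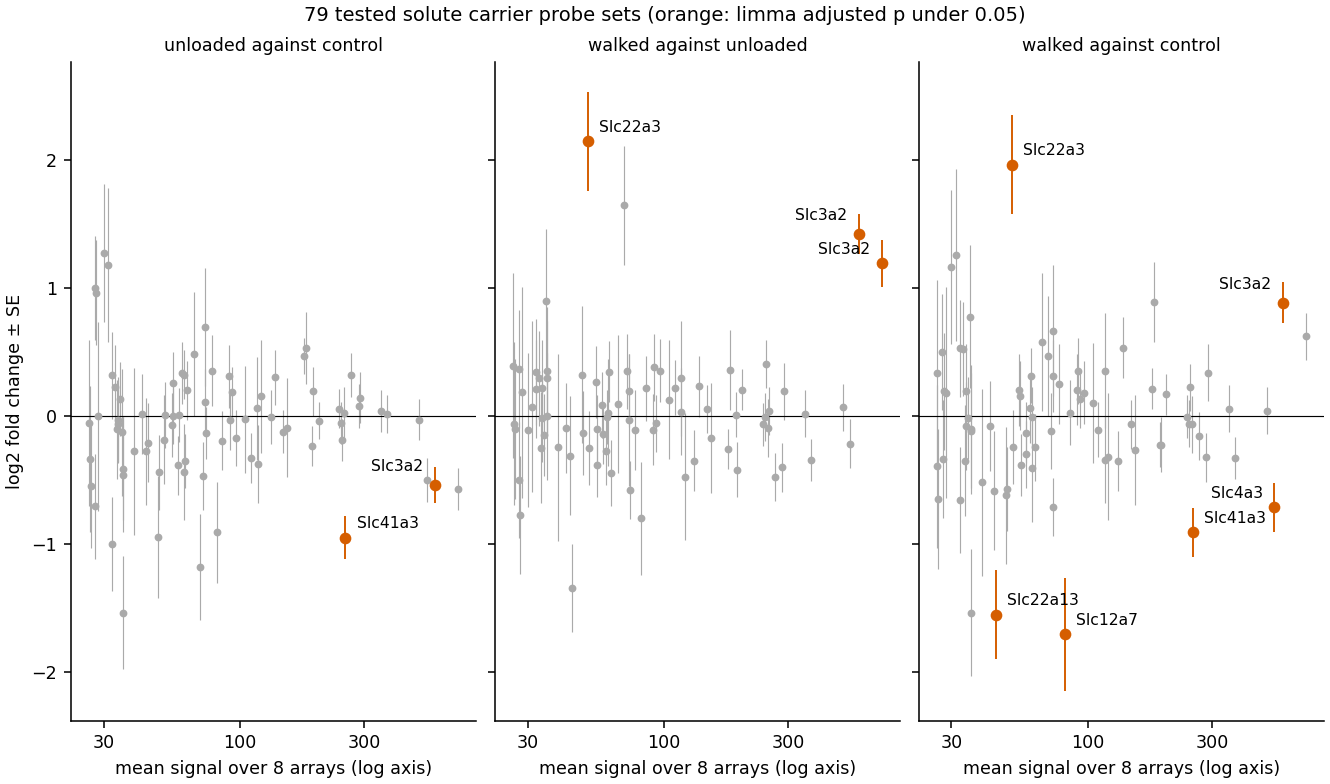
Log2 fold change (vertical axis) against mean signal intensity (horizontal log axis) for the 79 solute carrier probe sets tested, 1 panel per comparison, with bars of ± 1 standard error and called sets in orange and named. Most points lie within 0.5 of 0, and the called ones include Slc3a2 and Slc22a3 above 0 and Slc41a3 below 0.

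Among the amino acid carriers, Slc3a2 rose with walking. It encodes the 4F2 heavy chain, which brings several light chains of the Slc7 family to the plasma membrane and so takes part in the exchange of large neutral amino acids such as leucine. Of its 2 probe sets, the first and brighter one gave 635, 695 and 692 in control pools, 445, 362 and 577 in unloaded pools, and 1070.3 and 1006 in walked pools. The second gave 469, 511 and 549 in control, 388, 311 and 356 in unloaded, and 854 and 1038 in walked pools. On both, all unloaded pools lay below all control pools and both walked pools above all others, with no overlap between groups.

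The rise from unloaded to walked was called on both probe sets, with log2 fold changes of 1.20 ± 0.18 (limma, adjusted p = 0.00269) and 1.43 ± 0.16 (adjusted p = 0.000205). Against control, the walked level was higher by 0.62 ± 0.18 on the first (adjusted p = 0.056, not called, but called in 6 of 17 alternative settings) and rose by 0.89 ± 0.16 on the second (0.00757), a call lost without walked pool 2 (0.75, adjusted p = 0.0930). Leaving out a walked pool leaves that group with 1 array, which is then assumed to vary like the other groups, so a call lost that way says little about the size of a change. Unloaded against control gave -0.57 ± 0.16 on the first (adjusted p = 0.0605, not called, but called in 3 of 17). On the second, Slc3a2 fell by 0.54 ± 0.14 (0.042). That last call held in 4 of 17 alternative settings and was lost without any 1 of the 8 arrays (adjusted p up to 0.143). Both probe sets have names that mark probes able to match more than 1 transcript.

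None of the tested light chains and other members of that class was called. Slc7a5, a large neutral amino acid light chain that pairs with Slc3a2, gave 108, 90.6 and 62.5 in control, 73.8, 94.3 and 82.9 in unloaded, and 129 and 91.6 in walked pools, with overlapping groups. Its log2 fold change from unloaded to walked was 0.38 ± 0.26, with a 95% interval of -0.19 to 0.96 (limma, adjusted p = 0.504). The difference between Slc3a2 and Slc7a5 in response was not tested.

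The cationic amino acid transporter Slc7a1 had 1 of 3 probe sets above the threshold, at 41.5 ± 18.6 (SD, n = 3) in control, 29.4 ± 6.39 (n = 3) in unloaded and 35.8 ± 7.34 (n = 2) in walked pools. Its other sets had means of 9.91 and 2.21. The related Slc7a2 (mean 19.8) and Slc7a3 (22.8) were not tested. The heavy chain Slc3a1, known from the kidney and intestine, gave 294 ± 53.6 in control, 309.7 ± 46.3 in unloaded and 233 ± 8.22 in walked pools, and was not called. Among the transporters of acidic and neutral amino acids, Slc1a2 was brightest, at 82.1 ± 19.6, 58.5 ± 6.69 and 77.6 ± 32.3, with no call, and its other 3 probe sets had means of 7.76 to 17.5.

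Genes known to respond to amino acid shortage and cell stress, a list of 28 of which 13 were on the array and 11 tested, are given beside Slc3a2. The list was chosen with earlier results of these data known, so its changes are a description and no independent support. After unloading 0 rose and 3 fell, the transcription factor Atf3 (-1.46 ± 0.21), the cysteine synthesis enzyme Cth (-2.66 ± 0.41) and the phosphatase subunit Ppp1r15a (-1.24 ± 0.20). From unloaded to walked 4 rose and 0 fell: Atf3 (4.12 ± 0.23), Ppp1r15a (2.51 ± 0.22), the growth factor Vegfa (1.80 ± 0.20) and the transcription factor Ddit3 (1.26 ± 0.25). Against control, Atf3 (2.67), Vegfa (1.31), Ppp1r15a (1.26) and the pseudokinase Trib3 (1.53) rose and 0 fell. Over all probe sets tested, 3.32% fell after unloading, 2.73% rose from unloaded to walked and 4.46% rose in walked against control. Cth was among the probe sets tested only through its control pools (mean 54.6, against 15.4 over the other 5 arrays), and a probe set kept that way had to differ between groups, so its fall supports nothing here. The list's median log2 fold changes, Cth included, were -0.35, 0.64 and 0.43 in the 3 comparisons. Those of all probe sets tested were -0.08, -0.05 and -0.11. Asparagine synthetase (Asns) and the serine enzyme Psat1 were below the threshold and not tested, so 2 enzymes of amino acid synthesis have no test here.

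Of the organic ion carriers, Slc22a3 rose and Slc22a13 fell. Slc22a3 is a low-affinity carrier of monoamines and other organic cations. Its tested probe set gave 19.5, 48.9 and 27.6 in control, 27.5, 21.9 and 29.9 in unloaded, and 110.1 and 123 in walked pools. Both walked pools were above every other pool, and control and unloaded pools overlapped. The log2 fold change was 2.15 ± 0.39 against unloaded (limma, adjusted p = 0.00779) and 1.97 ± 0.39 against control (0.0127).

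The Slc22a3 calls were lost without walked pool 1 (adjusted p = 0.0746 against unloaded and 0.0782 against control), without walked pool 2 (0.107 and 0.111) and with no filter on low signals (0.0644 and 0.063). The fold change without walked pool 1 or 2 was 2.23 and 2.07 against unloaded, and 2.04 and 1.89 against control. The second Slc22a3 probe set was below the threshold and not tested. It gave 18.6, 19.0 and 11.7 in control, 11.5, 11.0 and 8.30 in unloaded, and 29.5 and 14.5 in walked pools, so there walked pool 1 was the highest array and walked pool 2 lay within the control range.

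Slc22a13, a carrier of organic anions such as nicotinate and urate, gave 56.9, 64.4 and 46.9 in control, 42.2, 63.7 and 41.5 in unloaded, and 24.6 and 14.6 in walked pools. The walked pools were the lowest, and the other groups overlapped. It fell by 1.55 ± 0.34 on the log2 scale against control (limma, adjusted p = 0.0218), a call lost without control pool 2 (-1.44, 0.0708), without walked pool 2 (-1.18, 0.151) and with no filter. Against unloaded the difference was -1.34 ± 0.34 (0.0552, not called). The carnitine transporter Slc22a5 gave 70.0 ± 7.98, 57.9 ± 29.2 and 52.6 ± 3.22 and the brightest of the class, the anion carrier Slc22a7, 101 ± 23.0, 123 ± 89.4 and 129 ± 25.2 in control, unloaded and walked pools, without a call. The second probe set of Slc22a7 had a mean of 19.7.

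Slc41a3 fell after unloading and was also low in walked pools. It belongs to a family of magnesium carriers. The signal was 309, 369 and 399.7 in control, 167, 190.5 and 199 in unloaded, and 161 and 225 in walked pools. All control pools were above all others, and unloaded and walked pools overlapped. The log2 fold change was -0.95 ± 0.17 for unloaded against control (limma, adjusted p = 0.00636), a call that held in all 17 alternative settings. Walked against control gave -0.91 ± 0.19 (adjusted p = 0.0173), lost without walked pool 1 (-0.67, 0.133), with no filter (0.0583) and without a mean-variance trend (0.0524). From unloaded to walked it was 0.04 ± 0.19, with a 95% interval of -0.38 to 0.46.

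The related Slc41a2 was dim (mean 8.51) and not tested in the main setting. It gave 19.1, 14.0 and 12.5 in control, 4.50, 4.40 and 5.10 in unloaded, and 5.10 and 3.41 in walked pools, again with all control pools above all others. With no filter on low signals it was called, at -1.68 for unloaded against control (limma, adjusted p = 0.01) and -1.71 for walked against control (0.0208). This gene was named for that call, after its values were seen. Most of its unloaded and walked signals lay near the floor of 4.10.

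Of the zinc and iron carriers none was called. The zinc carrier Slc30a4 gave 89.3, 70.2 and 71.9 in control, 52.8, 50.9 and 14.5 in unloaded, and 106 and 107 in walked pools, without overlap between groups. Its log2 fold change was -1.18 ± 0.42 for unloaded against control (limma, adjusted p = 0.122) and 1.65 ± 0.47 for walked against unloaded (0.0802). Unloaded pool 3 was the lowest array, and without it the difference was 1.04 and was called (adjusted p = 0.0356). The iron exporter Slc40a1 gave 21.1 ± 9.79, 38.8 ± 4.24 and 22.7 ± 1.93 on 1 probe set and 14.6 ± 8.73, 30.0 ± 9.71 and 18.8 ± 5.46 on the other, which was not tested. The first passed the threshold only through its unloaded pools.

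Among the bicarbonate and chloride exchangers, Slc4a3 fell in walked against control. It exchanges chloride for bicarbonate and is known from heart, brain and other excitable tissue. The signal was 582, 607 and 776 in control, 549, 436 and 406 in unloaded, and 449 and 349.8 in walked pools, with every control pool above every other pool and unloaded and walked pools overlapping. The log2 fold change was -0.71 ± 0.19 for walked against control (limma, adjusted p = 0.0409), which held in 7 of 17 alternative settings and was lost without walked pool 2 (-0.53, 0.284). It was -0.50 ± 0.17 for unloaded against control (0.111, not called).

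The sodium-bicarbonate cotransporter Slc4a7 was level, at 341 ± 59.5 in control, 348 ± 35.4 in unloaded and 352 ± 35.1 in walked pools. Its log2 fold changes were 0.04 ± 0.16, 0.02 ± 0.18 and 0.06 ± 0.18, and the 95% intervals of all 3 lay between -0.38 and 0.46. Slc4a1, the anion exchanger of the red cell membrane, gave 114 ± 21.1, 142 ± 37.4 and 164 ± 15.5 on its brightest set, without a call. Its other tested set was level, at 35.0 ± 6.34, 33.6 ± 5.86 and 33.0 ± 3.59, and an untested set had a mean of 18.4. The signal of the brightest set summed with those of beta globin (Hbb) and the heme enzyme Alas2 was 4062 to 4934 in control, 3601 to 5682 in unloaded and 2867 to 3938 in walked pools. Hbb made up most of that sum. In walked against control Slc4a1 was higher (0.54 ± 0.24), while Hbb (-0.44 ± 0.22) and Alas2 (-0.50 ± 0.23) were lower. None of these 3 red cell markers, of 5 listed, was called. Of 21 carbonic anhydrases and other acid and base partners, 9 were on the array and 6 tested. Of these, 0 were called in any comparison, against 14.0% of all probe sets tested. With so few genes, nothing particular to these partners is read from that count. Their median log2 fold changes were 0.07, 0.08 and 0.11.

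Of the cation-chloride cotransporters, which set cell volume and chloride, Slc12a7 fell in walked against control. This potassium-chloride cotransporter gave 114, 128 and 122 in control, 62.4, 76.0 and 56.9 in unloaded, and 18.6 and 74.2 in walked pools. All control pools were above all others, and the walked pools stood far apart. The log2 fold change was -1.71 ± 0.44 (limma, adjusted p = 0.0372), but -0.71 without walked pool 1 (0.171, not called) and -2.70 without walked pool 2, and the call held in 7 of 17 alternative settings. From unloaded to walked the log2 fold change was -0.80 ± 0.44 (limma, adjusted p = 0.394, not called), with overlapping groups. Without walked pool 2 that value was -1.80, resting on the 1 walked array at 18.6. Unloaded against control the log2 fold change was -0.91 ± 0.39 (0.211). That difference was called when the fit held only these 2 groups, or without either walked pool.

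The related Slc12a4 gave 208 ± 27.9 in control, 176 ± 14.8 in unloaded and 178 ± 20.3 in walked pools on 1 probe set. On its other set control pool 3 stood apart, with 67.8 against 243 and 213 in the other control pools, 127 to 157 in unloaded and 119 and 136 in walked pools. Without that pool the second set was called for unloaded against control (-0.67, limma, adjusted p = 0.0472) and for walked against control (-0.84, 0.0297). The sodium-potassium-chloride cotransporter Slc12a2 had 3 tested probe sets, with unloaded against control at 0.36, 0.13 and 1.28 and no call. The set with 1.28 passed the threshold only through its unloaded pools, and control pool 3 was its lowest array, at 6.30.

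The sodium-calcium exchangers, which remove calcium from the cell, were not called. The brightest set of Slc8a1 gave 486 ± 63.9 in control, 479 ± 87.8 in unloaded and 498 ± 25.3 in walked pools. Its log2 fold changes were -0.03 ± 0.16, 0.07 ± 0.18 and 0.04 ± 0.18. A second tested set gave 53.2 ± 8.54, 54.6 ± 15.6 and 44.7 ± 2.73. Of 3 Slc8a1 sets below the threshold, 1 was higher in both walked pools, at 36.5 and 32.1 against 11.7 to 19.0 in the other 6, and was not tested; the other 2 overlapped between groups.

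Slc8a2 and Slc8a3 were lower in walked pools without a call. Slc8a2 gave 103, 78.5 and 73.7 in control, 70.0, 90.7 and 71.3 in unloaded, and 48.5 and 54.6 in walked pools, where both walked pools were the lowest. Its log2 fold change against control was -0.71 ± 0.23 (limma, adjusted p = 0.078). Slc8a3 gave 58.8 ± 6.96, 59.2 ± 9.75 and 44.9 ± 2.51. Of 22 sodium and calcium pump genes, whose gradients these exchangers use or share, 14 were on the array and 12 tested. Of these, 0 were called in any comparison, against 14.0% of all probe sets tested. With so few genes, nothing particular to the pumps is read from that count. Their median log2 fold changes were -0.08, -0.04 and 0.08.

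No carrier of nucleosides or of fuel and energy substrates was called. The equilibrative nucleoside transporter Slc29a1, which passes adenosine, gave 385 ± 46.8 in control, 389.6 ± 47.2 in unloaded and 306 ± 19.8 in walked pools, with log2 fold changes of 0.01 ± 0.15, -0.34 ± 0.16 and -0.33 ± 0.16. Both walked pools, at 292 and 319.5, were below all others. The related Slc29a2 gave 253 ± 58.5, 254 ± 19.0 and 241 ± 59.1. The concentrative nucleoside transporter Slc28a2 gave 161, 174 and 73.2 in control, 205, 172 and 176 in unloaded, and 219.6 and 254 in walked pools. There the walked pools were the highest, control pool 3 the lowest, and walked against control was 0.90 ± 0.31 (limma, adjusted p = 0.098, not called).

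The fatty acid transporter Slc27a1 gave 204, 285 and 259.8 in control, 341, 295 and 293 in unloaded, and 252 and 196 in walked pools. The unloaded pools were the highest and the other groups overlapped. The log2 fold changes were 0.32 ± 0.17 after unloading (limma, adjusted p = 0.308) and -0.48 ± 0.19 from unloaded to walked (0.218). The creatine transporter Slc6a8 gave 249 ± 47.3, 217 ± 13.5 and 289 ± 35.4, and walked against unloaded was 0.41 ± 0.19 (0.284). The phosphate transporter Slc20a2 gave 196 ± 17.6, 191 ± 16.6 and 220.0 ± 3.97, and both walked pools, at 217 and 223, were narrowly the highest, without a call (walked against unloaded 0.21 ± 0.16, adjusted p = 0.562).

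The 2 members of the glucose-6-phosphate group differed in spread. Slc37a4, the translocase of the endoplasmic reticulum, had 1 set with 146, 153 and 147 in control, 228, 193 and 199 in unloaded, and 181 and 164 in walked pools, without overlap between groups. Unloaded against control was 0.47 ± 0.14 (limma, adjusted p = 0.0734, not called). The fold change on its other set was 0.19 ± 0.19, with overlapping groups. Slc37a1 gave 44.5, 62.1 and 70.3 in control, 36.7, 18.7 and 11.6 in unloaded, and 17.3 and 23.0 in walked pools. All control pools were above all others, and the log2 fold changes were -1.54 ± 0.44 for unloaded against control (adjusted p = 0.0624) and -1.54 ± 0.50 for walked against control (0.078), not called. Slc37a1 passed the threshold only through its control pools (mean 59.0, against 21.5 over the other 5 arrays). A probe set kept that way had to differ between groups, so its separation and p-values support nothing here.

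The remaining classes held no call, and their brightest members are given in the order control, unloaded and walked. The folate carrier Slc19a1 had 152 ± 14.0, 140.3 ± 18.3 and 146 ± 25.2, and the urea transporter Slc14a2 265 ± 68.2, 287 ± 35.8 and 327 ± 27.6. The second urea transporter, Slc14a1, had 235 ± 11.3, 246 ± 31.0 and 235 ± 31.2. The groups overlapped on the sets shown of all 3 carriers. On the other tested set of Slc19a1 (96.5 ± 3.73, 88.2 ± 25.8 and 109.6 ± 8.99), both walked pools were above all control pools, without a call.

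The nucleotide carrier Slc35b1 had 249 ± 10.6, 244 ± 52.4 and 239 ± 5.68. The sodium-glucose symporter Slc5a1 had 139 ± 64.5, 101 ± 17.7 and 106 ± 36.0, with control pool 1 at 212 as the highest array. The dicarboxylate transporter Slc13a2 had 100.4 ± 33.2, 103 ± 44.7 and 114 ± 67.0. Groups overlapped on all of these sets. On the other tested set of Slc35b1 (137 ± 12.1, 141 ± 39.8 and 107 ± 4.18), both walked pools were below all control pools. On that of Slc5a1 (58.8 ± 5.80, 43.7 ± 7.60 and 42.0 ± 20.2), all unloaded pools were below all control pools. Neither was called.

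The vesicular acetylcholine transporter Slc18a3, a protein of motor nerve endings, had 67.8 ± 20.6, 72.6 ± 15.4 and 82.3 ± 10.2. Its other tested set had 59.0 ± 2.53, 59.8 ± 8.78 and 54.4 ± 10.0, so the 2 sets differed in direction in walked pools. The ascorbate family member Slc23a3 had 57.4 ± 33.0, 71.5 ± 27.8 and 72.3 ± 0.590, with control pool 3 the lowest array at 19.4. The peptide carrier Slc15a4 had 66.9 ± 9.72, 52.3 ± 6.33 and 66.6 ± 9.51. The riboflavin transporter Slc52a3 had 33.6 ± 10.3, 32.3 ± 6.02 and 37.3 ± 3.07, and the bile acid transporter Slc10a2 41.0 ± 13.8, 38.4 ± 23.6 and 38.1 ± 37.1. In the last, walked pool 1 stood at 11.8 and walked pool 2 at 64.3, a spread that leaves no comparison.

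**Figure D3:**
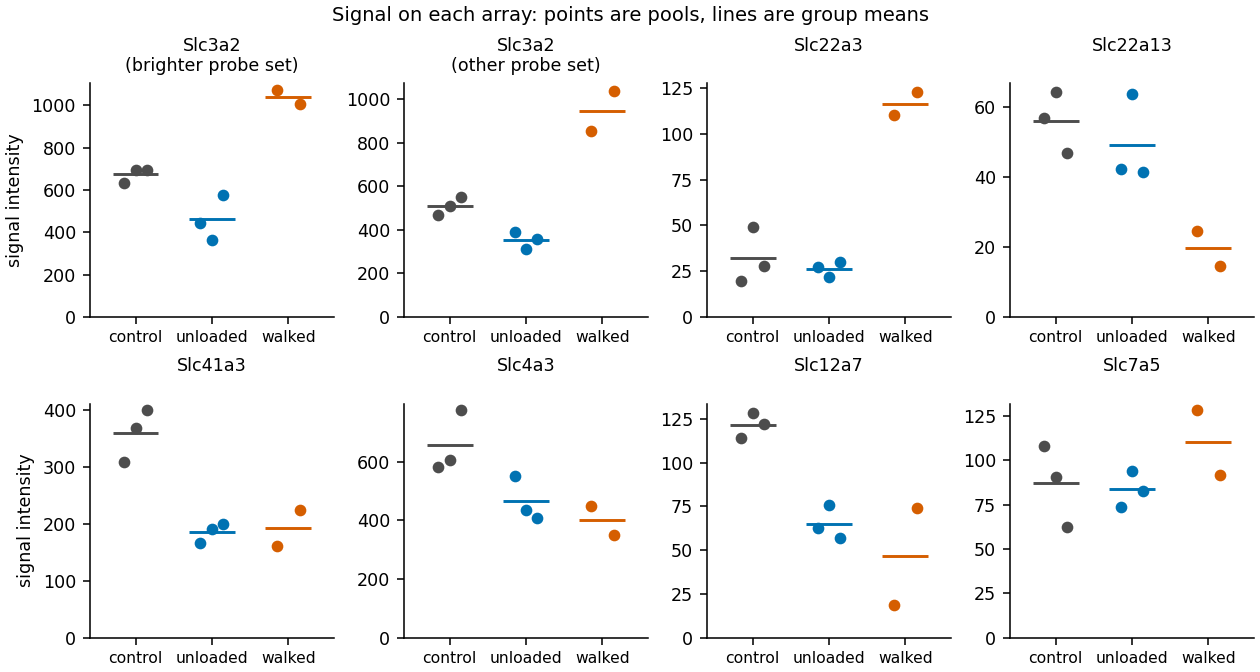
Signal intensity on each of the 8 arrays (vertical axes from 0, scaled per panel) of the 7 solute carrier probe sets called in at least 1 comparison and of Slc7a5, with points for pools and lines for group means of 3 control, 3 unloaded and 2 walked pools. Slc3a2 is lowest in unloaded and highest in walked pools on both probe sets, and Slc41a3 is highest in control pools, while the groups of Slc7a5 overlap.

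The 7 called probe sets fell into 3 patterns by which group stood apart, a description made after their values were seen. In both Slc3a2 sets the 3 groups were separate, with the walked pools highest and the unloaded pools lowest. In Slc22a3 and Slc22a13 the walked pools stood apart and the control and unloaded pools overlapped. In Slc41a3, Slc4a3 and Slc12a7 the control pools were above all others, and the unloaded and walked pools overlapped.

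Markers of other cells moved in some of the same comparisons, and their part in the values above was not tested. The smooth muscle gene Tagln fell after unloading (-0.96 ± 0.22), with the summed signal of 4 of 5 smooth muscle markers at 1676 to 2356 in control, 1071 to 1385 in unloaded and 1449 to 1734 in walked pools. The fat cell gene Fabp4 rose after unloading (1.52 ± 0.20), where the sum of 4 of 6 adipocyte markers was 1213 to 1533, 1174 to 1449 and 1133 to 1477. The other tested adipocyte markers, Lep (-0.28) and Cfd (-0.43), were lower after unloading without a call. The leukocyte gene Cd48 rose after unloading (1.40 ± 0.25) and Cd74 fell in walked against control (-0.65 ± 0.16), and 6 of 9 leukocyte markers summed to 830 to 921, 788 to 975 and 753 to 802. Cd48 ran against its list after unloading, where Cd74 (-0.34), Ptprc (-0.83) and Cd14 (-0.17) were lower and Lyz2 (0.10) higher, none called, and the list's median was -0.17. In walked against control, Ptprc (-0.85) and Lyz2 (-0.05) were lower like Cd74, and Cd48 (0.92) and Cd14 (0.21) were higher. Only Cd74 was called there, and the leukocyte list's median was -0.05. No endothelial (4 of 6 on the array) or Schwann cell and nerve marker (5 of 8) was called. Of the slow muscle markers, only Tpm3 was called after unloading, where it fell (-0.95 ± 0.17). The other tested ones were higher: Ckm (0.60), Tnni1 (0.49), Myl3 (0.40), Myl2 (0.28), Myh7 (0.24) and Actn2 (0.07). The list's median there was 0.28. In walked against control Tnni1 (0.58), Myl2 (0.60), Myl3 (0.58) and Ckm (0.93) rose. Myh7 (0.47) and Actn2 (0.19) were higher and Tpm3 (-0.47) lower in that comparison, without a call.

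Of the 11 calls made over these probe sets and comparisons, 3 held in every alternative setting tried. These were the fall of Slc41a3 after unloading and the rise of Slc3a2 from unloaded to walked on both of its probe sets. None of the alternatives turned the sign of a called fold change.

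**Figure D4:**
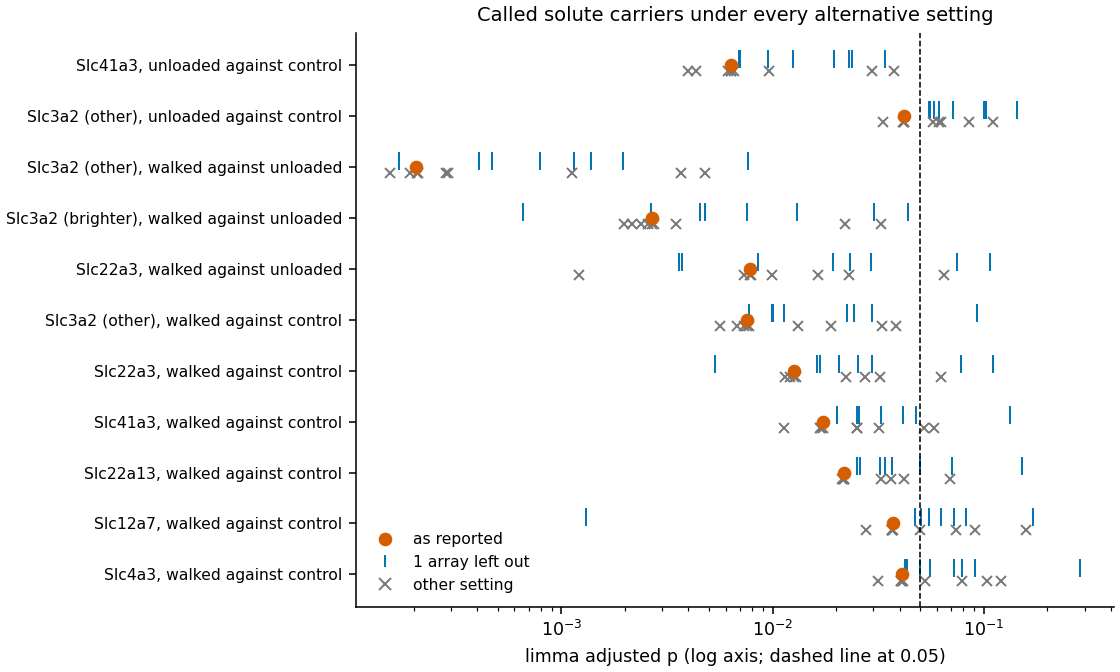
Adjusted p from limma (horizontal log axis, dashed line at 0.05) of each of the 11 called solute carrier results, 1 row per probe set and comparison, as reported (orange), with 1 array left out (blue) and under the other settings (grey). Only the rows of Slc41a3 in unloaded against control and of the brighter and other Slc3a2 sets in walked against unloaded keep every mark left of the line.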

How the data were processed

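Biotin-labelled cRNA from 10 microg of pooled soleus RNA was hybridised to 8 one-colour Affymetrix arrays. The deposited intensity values were made by the authors with MAS5, per the submitters' processing notes. Its version and scaling target are not stated. MAS5 subtracts mismatch and background estimates, so dim probe sets are noisy. The deposited trimmed means (2% off each end) were 148 to 149 on every array. Arrays were brought to a common trimmed mean, a floor was set at the 10th percentile (4.10), and values were taken to log2. Probe sets under the 40th percentile of mean signal were left out, and 5244 of 8740 were tested with limma 3.58.1 in R 4.3.3 (all 8 arrays, 3 groups, eBayes with a trend, two-sided; 5 residual and 6.00 prior degrees of freedom). The code was tested on simulated data. With 3 against 3 or 3 against 2 arrays the smallest exact permutation p for a single gene is 0.1, and the number of arrays limits the precision.

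All 96 genes were found by gene ID in the gene table of GRCr8. The promoter windows are RefSeq's. Probe sets with several symbols (308) or none (1426) were not used. Named with values were members that were called, the 10 brightest, the brightest of each class, the 3 smallest p not called per comparison, Slc3a2 and the Slc7 genes, other probe sets of these, and the neighbours of the threshold. Members and lists were chosen with earlier results of these data known. Slc4a1 was named as a red cell marker from the lists. Slc8a3, Slc12a2, Slc14a1, Slc22a5, Slc28a2, Slc29a2, Slc40a1 and Slc41a2 were added to that rule after their values were seen. So were the second sets of Slc5a1, Slc12a4, Slc18a3, Slc19a1 and Slc35b1 and the other sets of Slc4a1. Pool numbers recur across groups, but deviations of same-numbered pools correlated at -0.07 to 0.05 and do not pair them.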

Additional observations from a re-analysis of the deposited data

How the results depend on the processing

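Alternatives were quantile or no further scaling, a floor at the 20th percentile or none, no filter or one at the 60th percentile, eBayes without a trend, only the groups compared, the pool number as a block, and each array left out. For unloaded against control the 383 probe sets called became 228 with no filter and 243 without a trend, and 230 to 405 with 1 array left out; the 2 solute carriers became 1 after quantile normalization, 4 with the filter at the 60th percentile, 1 without a trend and 1 to 2 with 1 array left out. For walked against unloaded, leaving out 1 array gave 120 to 261 probe sets called (220 with all) and 2 to 4 solute carriers (3 with all). For walked against control the 476 became 216 with no filter, 211 without a trend, and 104 to 504 with 1 array left out, fewest without walked pool 2; the 6 solute carriers became 2, 3, and 2 to 8. With the pool number as a replicate block, 394, 177 and 251 probe sets and 2, 3 and 6 solute carriers were called. Under that block the calls of Slc3a2 (second set, unloaded against control, adjusted p = 0.0614) and Slc4a3 (0.0785) were lost, and the first Slc3a2 set was called against control in unloaded (0.0497) and walked pools (0.0496); the cause was not tested. No called fold change was reversed by any alternative. With 2 or 3 pools a group and 51 of 79 solute carriers under a signal of 100, small changes of dim carriers could not be detected here.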
